A study of Homo sapiens with 4 samples.

Results

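The luminal lineage transcription factors described here are the 8 genes FOXA1, GATA2, GATA3, GRHL2, SOX9, SOX4, KLF5 and CREB3L4, taken by symbol from the 33538 genes listed in each count matrix. To follow these factors through short-term and long-term drug exposure, single-cell RNA sequencing (scRNA-seq) was used on 4 libraries, with 1 library per group. All 4 groups come from LNCaP, an androgen-sensitive line grown from a human prostate cancer metastasis. LNCaP denotes parental cells given the solvent DMSO at 0.1% for 48 h. LNCaP-ENZ48 denotes parental cells treated for 48 h with 10 µM enzalutamide (ENZ), an anti-androgen used against prostate cancer. RES-A and RES-B are LNCaP derivatives labelled as resistant to ENZ and fed with 10 µM ENZ. Per the study's methods, they arose by prolonged exposure to anti-androgens of the second generation, RES-A in ENZ and RES-B in RD-162. Each group is therefore a cultured line with no stroma or immune cells of a tumour, and each resistant state is represented by a single derived line.

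Luminal cells are the secretory epithelium that lines prostate glands, and most prostate cancers resemble them. Their identity is maintained by transcription factors that open chromatin and recruit the machinery of androgen signalling to genes of secretion and cell adhesion. FOXA1 and the GATA factors are known as pioneer factors of this kind, GRHL2 and KLF5 act broadly in epithelia, SOX9 and SOX4 are HMG-box factors active in development and in many carcinomas, and CREB3L4 is an androgen-induced factor of the secretory pathway.

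The 4 libraries held 14727 cells after filtering, between 1782 and 4569 each. The filtered cells summed to between 50208831 and 60838227 UMIs (unique molecular identifiers, the tags that let copies of a captured RNA be counted once), and the LNCaP cells were deepest, with a median of 27079.5 UMIs per cell against 12138 to 13676 in the other libraries. Any pair of libraries shared at most 9 cell barcodes. The luminal label fits the cells by its markers. KRT8, KRT18, EPCAM and CDH1 were between 102 and 918 CPM in every library, whereas KRT19 stayed between 1.29 and 2.36 CPM. CPM is the UMI count of a gene scaled by the total of its library to the same sum for all libraries. Of 5 basal markers, KRT5, KRT15 and TP63 had no UMI in any library, and nearly all of the sum of the 5, between 2.32 and 18.1 CPM, was DST. DST, a cytoskeletal linker gene, was 3.05 CPM in LNCaP and 2.32 in LNCaP-ENZ48, against 10.5 for RES-A and 18.0 for RES-B. It was thus higher in the resistant lines (log2 ratios 1.78 and 2.57), as was SOX9, and its part in the results was not tested. The summed levels of 5 neuroendocrine, 5 stromal and 5 immune markers were at most 4.34, 3.70 and 0.262 CPM, with CHGA, COL1A2 and PTPRC at 0 throughout. Nearly all of the neuroendocrine sum was SYP, between 3.37 and 4.34 CPM, and most of the stromal sum was COL1A1, between 1.45 and 3.19 CPM.

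With 1 library per group, no difference has a replicate check and no test was run. Ratios between libraries are log2 CPM ratios with an exact conditional binomial 95% interval, which covers counting error only. A gene was called higher or lower when it differed at least 1.5-fold, a log2 ratio of 0.58 or more, and its interval left out 0. The background is the share that met the same rule among the 7460 genes averaging 10 CPM or more over the libraries. Of the 8 factors, 6 had such a mean. GATA3 and KLF5 did not, and SOX9 did so only through its level in RES-B. That SOX9 passed the filter therefore adds nothing to its difference in RES-B.

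After 48 h of ENZ, 1 of the 8 factors was called higher (SOX9) and 2 were called lower (KLF5 and CREB3L4), beside 0.992% of all genes called higher and 3.19% called lower. In RES-A against LNCaP, 3 factors were called higher (SOX9, SOX4 and KLF5) and 1 lower (FOXA1), beside 11.3% and 11.5% of all genes. In RES-B against LNCaP, 4 factors were called higher (GRHL2, SOX9, SOX4 and CREB3L4) and 1 lower (KLF5), beside 14.2% and 8.26%. In RES-B against RES-A, SOX9 and CREB3L4 were called higher and KLF5 lower, beside 12.2% and 5.82%. The first 3 comparisons share the LNCaP library, so they are not independent of each other. KLF5 is counted here although its level of 1.22 to 3.33 CPM leaves it outside the 7460 genes. Over the 12627 genes from 1 CPM on, the shares called higher and lower were 2.39% and 5.07% in LNCaP-ENZ48. They were 16.1% and 14.9% in RES-A, 17.8% and 11.6% in RES-B, and 14.4% and 9.26% in RES-B against RES-A. GATA3 is counted among the 8 but had too few UMIs for a ratio. Over the other 7 factors, the median log2 ratio was -0.09, 0.14, 0.64 and 0.32 in these comparisons, beside -0.07, 0.02, 0.11 and 0.09 over all 7460 genes. Several calls lie close to the 1.5-fold limit. GATA2 in LNCaP-ENZ48 (log2 ratio 0.56) just missed it, and CREB3L4 in LNCaP-ENZ48 (-0.63), KLF5 in RES-A (0.59) and GRHL2 in RES-B (0.64) just passed it. Each of these 4 crosses it under TMM scaling, by which GATA2 becomes called (0.66) and the other 3 lose the call (-0.53, 0.54 and 0.53).

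**Figure D1:**
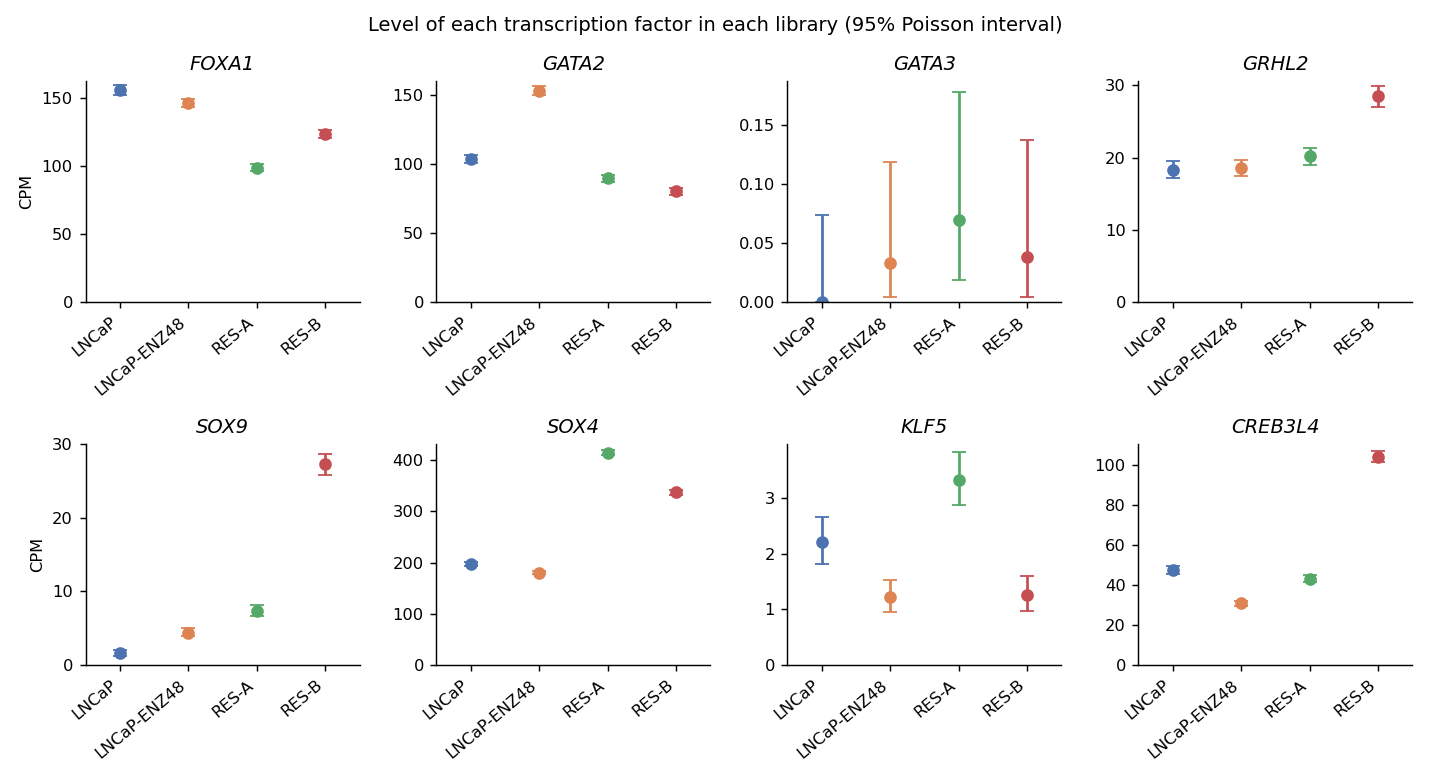
Level of each factor in CPM (vertical axes, each starting at 0, with a different scale per gene) in the 4 libraries; points are the library's value and bars the exact Poisson 95% interval, which covers counting error only. GATA2 is highest in LNCaP-ENZ48, SOX4 in RES-A, and SOX9, GRHL2 and CREB3L4 in RES-B, while GATA3 stays under 0.1 CPM.

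FOXA1, the forkhead pioneer factor that opens chromatin for androgen signalling, lies at chr14:37589552-37596059 on the minus strand (GRCh38, GENCODE 44). Its level was 156 CPM in LNCaP and 146 in LNCaP-ENZ48, against 98.6 for RES-A and 123 for RES-B. Both resistant lines were below both parental libraries, and no neighbours in this order overlapped in their intervals. Against LNCaP the log2 ratio was -0.09 (95% interval -0.13 to -0.05) in LNCaP-ENZ48, then -0.66 (-0.71 to -0.61) for RES-A and -0.34 (-0.38 to -0.29) for RES-B. In RES-A this placed FOXA1 below 90.4% of all genes, and in RES-B below 83.3%. TMM scaling and DESeq2 size factors turn the sign of the LNCaP-ENZ48 value (0.0049 and 0.011), so that no direction can be given for FOXA1 after 48 h. TTC6, a gene on the opposite strand that overlaps FOXA1, was 31.2 CPM in LNCaP and 43.0 in LNCaP-ENZ48, against 12.2 for RES-A and 15.8 for RES-B. It too was lower in both resistant lines, by log2 ratios of -1.35 and -0.99, while its LNCaP-ENZ48 value was 0.46. The part of TTC6 reads in the FOXA1 count was not tested.

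GATA2, a zinc finger pioneer factor that acts beside FOXA1 at androgen-regulated enhancers, lies at chr3:128479427-128493201 on the minus strand. It was 104 CPM in LNCaP and 153 in LNCaP-ENZ48, against 89.5 for RES-A and 80.1 for RES-B. The short-term treated library stood above the other 3, and both lines kept in the same drug stood below untreated LNCaP. The log2 ratio in LNCaP-ENZ48 was 0.56 (0.51 to 0.61), a 1.47-fold difference that was under the fold limit but higher than that of 98.8% of all genes in this comparison. In RES-A and RES-B it was -0.21 (-0.27 to -0.16) and -0.37 (-0.43 to -0.31). GATA2-AS1, the noncoding gene on the opposite strand, did not share this order. It was 42.1 CPM in LNCaP and 38.0 in LNCaP-ENZ48, against 35.6 for RES-A and 59.8 for RES-B, where its log2 ratio against LNCaP was 0.51.

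GATA3, the relative of GATA2 known from luminal breast epithelium and the developing prostate, lies at chr10:8045378-8075198 on the plus strand and was all but absent. LNCaP had 0 GATA3 UMIs, LNCaP-ENZ48 had 2, RES-A had 4 and RES-B had 2. With the limit of a count of 0 taken as 3 counts, 0 of 1782 LNCaP cells allows a share of up to 0.168% of cells with a UMI, or 0.0598 CPM. The upper ends of the exact 95% intervals are 0.207% and 0.0735 CPM. No fold is given between such counts. The other GATA genes of the family list were also low, with no UMI of GATA1 or GATA4, and GATA6 between 1.69 and 3.10 CPM. Of these 5 GATA genes, GATA2 had by far the most UMIs in all 4 libraries.

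GRHL2, a grainyhead-like factor that maintains genes of epithelial junctions, lies at chr8:101492439-101669726 on the plus strand. It was 18.3 CPM in LNCaP and 18.5 in LNCaP-ENZ48, against 20.2 for RES-A and 28.5 for RES-B. RES-B stood apart and the other 3 libraries lay close together. LNCaP-ENZ48 and LNCaP could not be told apart (log2 ratio 0.02, interval -0.11 to 0.15), and the sign of this value turns over all deposited barcodes and in cells called G1. The log2 ratio of RES-B was 0.64 (0.52 to 0.76) against LNCaP and 0.50 (0.39 to 0.61) against RES-A. AP001207.3, a noncoding gene on the opposite strand within GRHL2, was 1.45, 1.35, 7.41 and 10.5 CPM in the same order of libraries.

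KLF5, a zinc finger factor of proliferating and basal epithelium, lies at chr13:73054976-73077541 on the plus strand. It was sparse, with 2.21 CPM (111 UMIs) in LNCaP and 1.22 (74) in LNCaP-ENZ48, against 3.33 (191) for RES-A and 1.26 (66) for RES-B. RES-A was highest, LNCaP lay between, and LNCaP-ENZ48 and RES-B could not be told apart (log2 ratio 0.05, interval -0.46 to 0.54). Against LNCaP the log2 ratio was -0.86 (-1.31 to -0.42) in LNCaP-ENZ48, then 0.59 (0.25 to 0.94) for RES-A and -0.82 (-1.28 to -0.36) for RES-B. RES-B against RES-A gave -1.41 (-1.83 to -0.997). These values move with the cell cycle, as described further on.

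SOX9, an HMG-box factor of prostate development and of progenitor cells, lies at chr17:72121020-72126416 on the plus strand and differed most between libraries. It was 1.55 CPM in LNCaP and 4.37 in LNCaP-ENZ48, against 7.34 for RES-A and 27.2 for RES-B, from 78, 266, 421 and 1432 UMIs. Each library exceeded the one before it, and no neighbours in this order overlapped. The log2 ratio against LNCaP was 1.49 (1.12 to 1.88) in LNCaP-ENZ48, then 2.24 (1.89 to 2.61) for RES-A and 4.13 (3.80 to 4.48) for RES-B, which are 2.81-fold, 4.73-fold and 17.5-fold differences. SOX8, a near relative of SOX9, was 1.29 CPM in LNCaP and 2.04 in LNCaP-ENZ48, against 4.57 for RES-A and 4.47 for RES-B, whereas SOX10 had no UMI in any library.

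SOX4, an HMG-box factor often raised in prostate and other carcinomas, is a gene without introns at chr6:21593751-21598619 on the plus strand. It was 198 CPM in LNCaP and 180.4 in LNCaP-ENZ48, against 415 for RES-A and 337 for RES-B. Both resistant lines stood above both parental libraries. The log2 ratio against LNCaP was -0.13 (-0.17 to -0.09) in LNCaP-ENZ48, then 1.07 (1.04 to 1.10) for RES-A and 0.77 (0.73 to 0.80) for RES-B. That of RES-B against RES-A was -0.30 (-0.33 to -0.27). The LNCaP-ENZ48 value was -0.04 under TMM scaling and -0.03 under DESeq2 size factors, so this small difference depends on the scaling. SOX4 lay above 96.8% of all genes in RES-A against LNCaP and above 91.5% in RES-B against LNCaP. SOX11, of the same SOX group, was between 1.31 and 4.13 CPM, and SOX12, the remaining gene of that group, was between 35.0 and 38.5 CPM in all libraries.

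CREB3L4, a membrane-bound leucine zipper factor of the endoplasmic reticulum that androgens induce, lies at chr1:153967534-153974361 on the plus strand. It was 47.6 CPM in LNCaP and 30.8 in LNCaP-ENZ48, against 43.1 for RES-A and 104 for RES-B. It was lowest after 48 h of ENZ, near the parental level in RES-A and highest in RES-B, although RES-A and RES-B were both kept in ENZ. The log2 ratio was -0.63 (-0.72 to -0.54) in LNCaP-ENZ48 against LNCaP, -0.14 (-0.23 to -0.06) in RES-A against LNCaP, 1.13 (1.06 to 1.20) in RES-B against LNCaP and 1.28 (1.21 to 1.34) in RES-B against RES-A. Genes on the opposite strand overlap both ends of this locus. Of these, JTB was 270.2 CPM in LNCaP and 254 in LNCaP-ENZ48, against 306 for RES-A and 424 for RES-B, and SLC39A1 was 36.1, 34.3, 24.0 and 36.2 CPM. JTB was also highest in RES-B (log2 ratio against LNCaP 0.65), whereas SLC39A1 was level with LNCaP there (0.0043).

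The sequence before the start site is shown for the members with the largest ratios against LNCaP, since it is where their transcription begins. Start-site windows (250 bases before to 50 after) were taken from RefSeq, GRCh38.p14, and 6 of the 8 factors had an entry, SOX9 and GRHL2 having none. CREB3L4 and SOX4 had the largest ratios among the rest. Shown is the longest stretch of each window before the start that no exon covers, for SOX4 chr6:21593501-21593750 and for CREB3L4 chr1:153968185-153968236, both on the plus strand. The CREB3L4 stretch is short since exons of longer CREB3L4 transcripts and of SLC39A1, on the other strand, cover the bases before it. Capitals mark the GC box GGGCGGG that KLF and SP factors bind.
SOX4: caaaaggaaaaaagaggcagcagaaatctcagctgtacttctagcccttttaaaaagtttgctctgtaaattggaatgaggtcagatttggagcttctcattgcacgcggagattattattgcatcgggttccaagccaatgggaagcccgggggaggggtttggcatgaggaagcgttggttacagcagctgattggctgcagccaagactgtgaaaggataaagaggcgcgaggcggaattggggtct
CREB3L4: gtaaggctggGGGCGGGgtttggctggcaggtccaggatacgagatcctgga
Windows were searched on both strands for 5 motifs. Besides the GC box, these were TGTTTAC for forkhead factors. For the family of GATA2, the letters AGATAA were used. For the HMG-box factors, the letters AACAAT were used. For steroid receptors, the letters AGAACA were used. The GC box was the only one of the 5 found in the CREB3L4 window, and none was found in the SOX4 window. The GC box is common, being in 33.1% of 35116 windows, against 3.42% for the forkhead motif, 10.3% for the GATA motif, 10.1% for the HMG-box motif and 14.8% for the steroid receptor motif. FOXA1 and the farther upstream of 2 GATA2 windows each held 1 GC box and no other match. KLF5 had 2 windows, of which the first held the HMG-box and steroid receptor motifs and the second a GC box. The 6 GATA3 windows held 7 GC boxes and 1 HMG-box motif. A match describes letters only and does not show that a factor binds there.

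**Figure D2:**
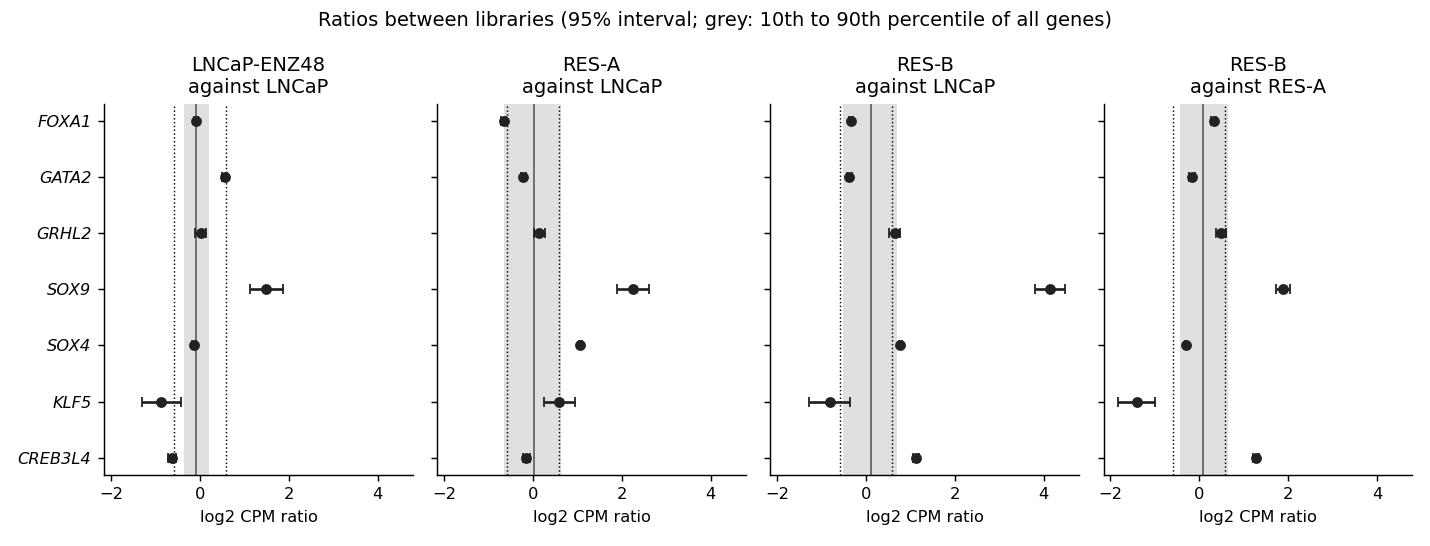
Log2 CPM ratios (horizontal axes) of the 7 factors with enough UMIs, 1 panel per comparison; points carry 95% conditional binomial intervals, dotted lines mark 1.5-fold, and the grey band spans the 10th to 90th percentile of 7460 genes with their median as a line. SOX9 lies right of the band in all 4 panels, up to 4.13 in RES-B against LNCaP, and FOXA1 lies at the left edge of the band in RES-A.

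The share of cells with a UMI depends on depth, so 5000 UMIs were drawn at random from each cell. No cell was too shallow for this. SOX9 was then found in 0.842% of LNCaP cells (exact binomial 95% interval 0.472 to 1.38), 1.95% in LNCaP-ENZ48 (1.56 to 2.40), 3.37% in RES-A (2.87 to 3.94) and 12.4% in RES-B (11.4 to 13.5). Its shares had the same order as its level, and the RES-B share was far outside the other intervals. CREB3L4 was found in 20.03% of LNCaP cells and 14.4% of LNCaP-ENZ48 cells, against 18.9% for RES-A and 39.3% for RES-B. GATA2 was found in 37.6%, 49.9%, 35.3% and 32.5% of cells, and FOXA1 in 54.99%, 50.2%, 38.9% and 45.6%, in the same order of libraries. SOX4 was the most widely found, in 57.0%, 50.7%, 73.9% and 63.5% of cells. GRHL2 was found in 9.09%, 9.06%, 9.50% and 12.8%, and KLF5 in 0.954%, 0.510%, 1.53% and 0.640%.

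Without thinning, the LNCaP cells, being deeper, showed larger shares of most factors, for example 69.2% for CREB3L4 against 68.4% in RES-B, and 38.9% for GRHL2 against 29.3%. These orders go against the CPM and are not read as differences. Every library is a single cell line, so no cell type that should lack these genes was at hand to measure free RNA in the droplets. The part of such RNA in the lowest shares was not tested. The range was wide between genes of 1 library, from 0 GATA3 cells to more than 50% SOX4 cells in LNCaP.

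**Figure D3:**
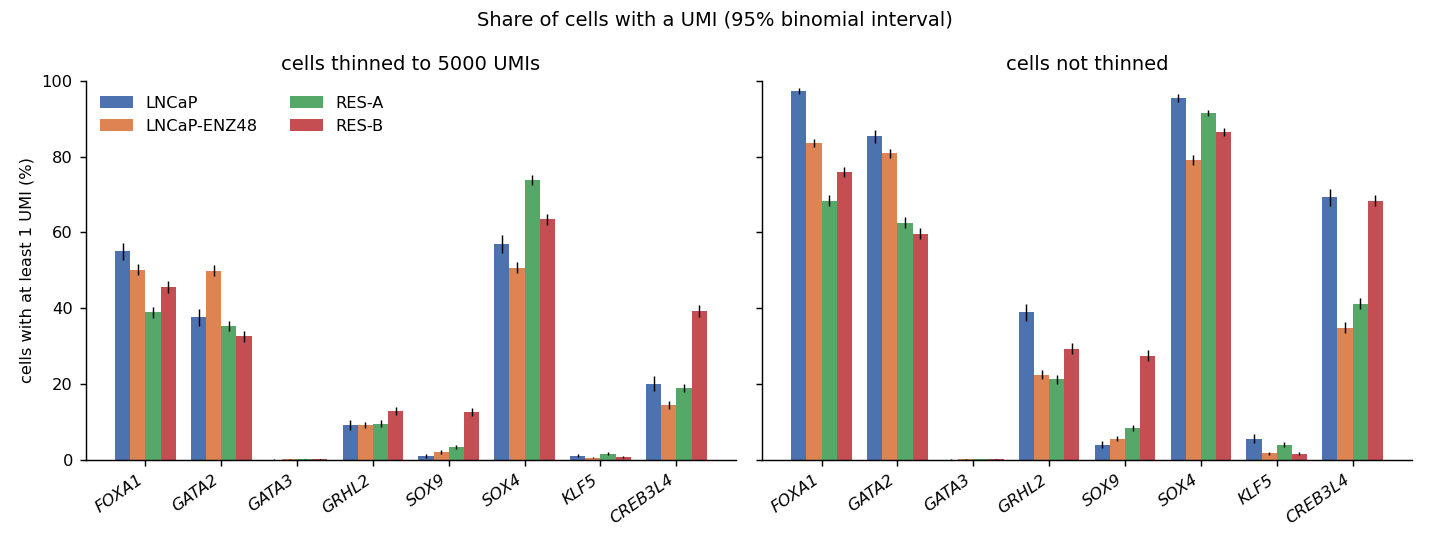
Percent of cells with at least 1 UMI of each factor (vertical axis) per library, with cells thinned to 5000 UMIs (left) and not thinned (right); bars are the shares and lines their exact binomial 95% intervals. Thinned SOX9 shares go from 0.842% in LNCaP to 12.4% in RES-B, and LNCaP loses its lead in CREB3L4 cells once depth is equal.

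In all 4 libraries the median thinned cell had a UMI of 2 of the 8 factors. Cells with none made up between 6.33% (RES-B) and 9.83% (LNCaP-ENZ48), and cells with 5 or more between 0.185% (LNCaP-ENZ48) and 1.33% (RES-B). The spread of each factor over cells was then described, and SOX4 stood apart. The variance to mean ratio of thinned counts is about 1 for random counting and had a median near 1.02 over all 7460 genes in each library. For SOX4 it was 2.04 in LNCaP and 2.69 in LNCaP-ENZ48, against 3.32 for RES-A and 4.21 for RES-B, above at least 98% of genes of like mean in every library. Random counting at the same mean would put SOX4 in 90.2% of the RES-A and 84.3% of the RES-B cells, against the 73.9% and 63.5% found. For GATA2 the ratios were 1.27, 1.30, 1.15 and 1.12, above 94.3%, 94.3%, 92.5% and 88.0% of genes of like mean. For SOX9 they were 1.23, 1.07, 1.10 and 1.06, the first resting on 15 LNCaP cells with a UMI and given no rank, and the others above 93.5%, 97.8% and 88.8% of genes of like mean. KLF5 had 0.991, 0.995, 1.09 and 1.07, and its RES-A ratio was above 97.9% of such genes. FOXA1 stayed between 1.05 and 1.08, GRHL2 between 1.02 and 1.07 and CREB3L4 between 1.01 and 1.07.

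In RES-B, 325 cells, 8.003% of the library, had 6 or more SOX4 UMIs per 5000 and held 40.7% of all SOX4 UMIs, while 36.5% of cells had none. In RES-A, 507 cells, 11.1% of the library, had 6 or more and held 40.8% of the SOX4 UMIs. Such cells made up 1.57% of LNCaP (28 cells) and 1.81% of LNCaP-ENZ48 (78 cells). In RES-B the cells with 6 or more had fewer UMIs in total than those with none (median 9105 against 12731) and a smaller mitochondrial share (8.91% against 12.5%). In RES-A the medians were 9626 against 12905 UMIs and 10.4% against 10.6% mitochondrial. The part of cell size and mitochondrial content in the SOX4 spread was not tested.

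The genes that varied with SOX4 over cells were then listed in each library, a description chosen after the values were seen. Counts were thinned, so depth is shared, and genes with a mean of at least 0.1 UMI entered (4756 to 5220 per library). In all 4 libraries the first was TMSB10, an actin-binding thymosin, with a Spearman coefficient of 0.43 over 4569 RES-A cells and 0.35 over 4061 RES-B cells, against 0.13 in LNCaP and 0.16 in LNCaP-ENZ48. Behind it in RES-A came H3F3A (0.33), which encodes a replication-independent histone, MARCKSL1 (0.30), RPL7 (0.28), the tubulin gene TUBA1A (0.28) and IGFBP5 (0.25), which encodes a growth factor binding protein. In RES-B, TMSB10 was followed by BNIP3 (0.34), a hypoxia-induced mitophagy gene, MALAT1 (0.33), a nuclear noncoding RNA, and the glycolysis genes PGK1 (0.31), LDHA (0.30) and ENO1 (0.29). BNIP3, PGK1, LDHA and ENO1 had coefficients between -0.03 and 0.06 in the other 3 libraries.

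The lowest coefficients in RES-B belonged to MRPL41 (-0.26), MT-ND2 (-0.26), MT-ATP6 (-0.26) and NQO1 (-0.25), the first 3 from mitochondrial translation and respiration and the last a quinone reductase. In RES-A they belonged to the detoxifying enzyme MGST1 (-0.22), CHCHD10 (-0.22), the ferritin gene FTH1 (-0.20) and NQO1 (-0.20). In levels, BNIP3 averaged 1.94 UMIs per 5000 in RES-B cells with no SOX4, 2.64 at 1 or 2 SOX4 UMIs, 5.52 at 3 to 5 and 9.52 at 6 or more. In LNCaP the same classes gave 1.99, 2.13, 2.49 and 3.75, the last over 28 cells. In LNCaP-ENZ48 they gave 2.08, 2.27, 3.01 and 3.10, and in RES-A 1.416, 1.502, 1.707 and 1.736. BNIP3 was thus higher with more SOX4 in every library, by the most in RES-B. PGK1 went from 2.06 to 5.50 in LNCaP, from 1.87 to 3.45 in LNCaP-ENZ48 and from 2.21 to 8.22 in RES-B, while RES-A had 1.70 and 1.73. TMSB10 went from 1.10 to 3.18 over these classes in LNCaP and from 1.11 to 4 in LNCaP-ENZ48. It went from 2.33 to 6.72 in RES-A and from 1.40 to 6.22 in RES-B. TMSB10 was thus higher with more SOX4 in every library, although the highest class held only 28 cells in LNCaP and 78 in LNCaP-ENZ48. The part of lower SOX4 and TMSB10 counts in the smaller TMSB10 coefficients of LNCaP and LNCaP-ENZ48 was not tested. For the other 6 factors with enough UMIs no coefficient was above 0.14 or below -0.12 in any library, and the 21 pairs of factors had coefficients between -0.07 and 0.08. In counts this sparse, such values are no finding.

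**Figure D4:**
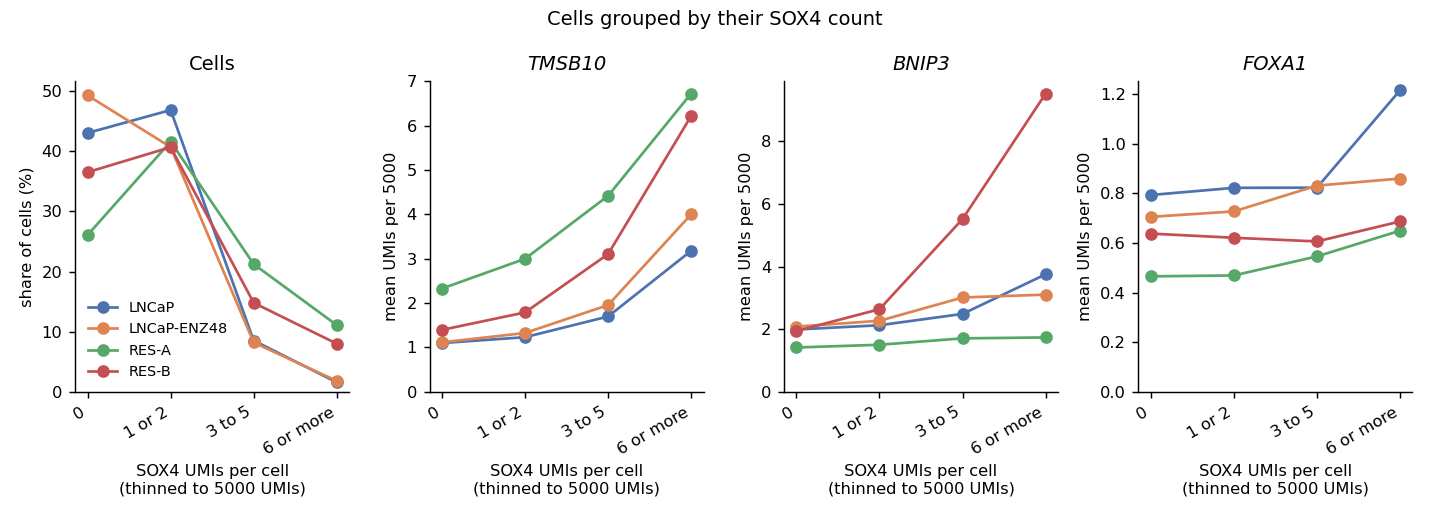
Cells grouped by their SOX4 count after thinning to 5000 UMIs (horizontal axes); the panels give the share of cells (%) and the mean UMIs per 5000 of TMSB10, BNIP3 and FOXA1 in each class and library, without error bars. BNIP3 reaches 9.52 in the highest RES-B class and 1.74 in that of RES-A, while TMSB10 is higher with each higher class in all 4 libraries.

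Cells were called G1, S or G2/M from marker lists of the cell cycle. The share called G1 was 73.3% in LNCaP and 83.7% in LNCaP-ENZ48, against 69.5% for RES-A and 75.5% for RES-B. The part of free RNA in these calls was not tested. FOXA1, GATA2 and SOX4 had lower levels in S than in G1 cells of all 4 libraries. So did GRHL2, SOX9 and CREB3L4, although some of their intervals also took in higher levels. Phase ratios over all genes were not computed. For GATA2 the log2 ratio of S to G1 was -0.79 (-0.97 to -0.61) in LNCaP and -0.50 in LNCaP-ENZ48, against -0.52 for RES-A and -0.45 for RES-B. For SOX4 it ranged from -0.62 in RES-B to -0.35 in RES-A, and for FOXA1 from -0.46 in RES-B to -0.27 in RES-A. KLF5 was instead higher in S than in G1 cells of LNCaP (log2 ratio 1.41, 0.47 to 2.28), while its intervals for S in the other libraries included both directions. Its level in G2/M against G1 cells was 4.73 against 1.32 CPM in LNCaP (log2 ratio 1.84, 1.23 to 2.45), 2.73 against 0.919 in LNCaP-ENZ48 (1.57, 0.75 to 2.35) and 2.02 against 1.03 in RES-B (0.97, 0.13 to 1.77). In RES-A its levels in G2/M and G1 could not be told apart, at 3.34 against 3.35 CPM (-0.0043, -0.54 to 0.51). Among cells called G1, KLF5 was higher in RES-A than in LNCaP by a log2 ratio of 1.34, and its calls in LNCaP-ENZ48 and RES-B against LNCaP were lost (-0.52 and -0.36).

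LNCaP and its derivatives carry rearranged chromosomes, so each factor was set beside the 25 expressed genes on either side of it, relative to the median of all genes. For SOX9, the 50 neighbours had a median of 0.12 in RES-B against LNCaP while SOX9 itself was at 4.02, above all 50. For GATA2 in LNCaP-ENZ48, the neighbours were at 0.01 and GATA2 at 0.63. For FOXA1 in RES-A, the neighbours were at -0.03 and FOXA1 at -0.68. KLF5 stood in a stretch of chromosome 13 that was itself lower in RES-A, with a median of -0.45 and 22 of 50 neighbours at least 1.5-fold lower, while KLF5 was at 0.57. The neighbours of SOX4 on chromosome 6 were at 0.21 in RES-B against LNCaP, where SOX4 was at 0.66. Those of CREB3L4 on chromosome 1 were at 0.23, where CREB3L4 was at 1.02. The part of copy number in these levels was not tested.

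**Figure D5:**
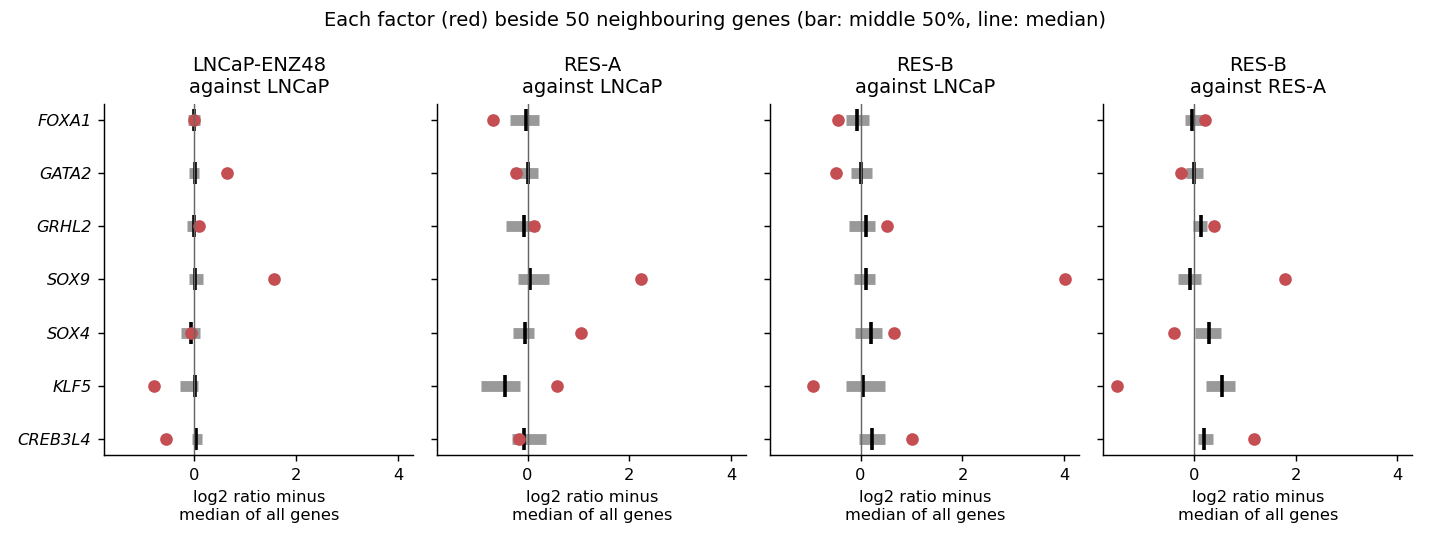
Each factor (red points) beside the 50 expressed genes nearest to it on its chromosome (black line, their median; grey bar, their middle 50%), as the log2 ratio minus the median of all 7460 genes (horizontal axes), 1 panel per comparison. SOX9 lies above all of its neighbours in RES-B, and KLF5 lies at 0.57 in RES-A while its neighbours centre on -0.45.

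Genes with the most similar course over the 4 libraries were named for each factor from 5078 genes averaging 20 CPM or more. The measure was the root mean square distance of log2 levels, with each gene first centred on its own mean over the 4 libraries. GRHL2 was followed most closely by ARF4 (0.0070) and UFC1 (0.017), SOX4 by KRCC1 (0.014) and POP5 (0.040), FOXA1 by USP47 (0.026) and HERC2 (0.032), and GATA2 by TSPAN3 (0.041) and SESN1 (0.050). For GATA2, 2 genes of the 5078 came within 0.1, against 123 for FOXA1 and 226 for GRHL2. The distance is not scaled by the size of the differences between libraries, so a fixed limit favours factors that vary little. The nearest genes to CREB3L4 were GMNN (0.096) and ACSM3 (0.11), and to KLF5 they were TUBE1 (0.22) and YDJC (0.24). Neither KLF5 nor SOX9, which differed most between libraries, had a gene within 0.1. The nearest to SOX9 were LRRN1 (0.36), at 6.31, 14.0, 16.9 and 60.5 CPM, and FAM198B (0.40), at 8.56, 14.7, 21.4 and 73.1 CPM. Both had the same order of libraries as SOX9. With 4 values per gene, likeness is a description only.

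Among family relatives of the factors, 5 of 20 averaged 10 CPM or more (SOX12, KLF3, KLF10, CREB3 and CREB3L2). Of these 5, none was called in LNCaP-ENZ48 or in RES-B against LNCaP (background 0.992% higher and 3.19% lower, and 14.2% and 8.26%), and 2 were called lower in RES-A (background 11.5%). From 1 CPM on, 11 relatives entered, of which 1 was called higher and 3 lower in LNCaP-ENZ48 (background at this filter 2.39% and 5.07%). In RES-A, 2 were called higher and 4 lower (16.1% and 14.9%), and in RES-B, 2 and 1 (17.8% and 11.6%). Among these, SOX8 had a log2 ratio of 1.79 in RES-B, and KLF4, a factor of epithelial differentiation, had -1.06. Among the 5 averaging 10 CPM or more, KLF10, a factor induced by TGF-beta, had the lowest RES-A ratio (-0.76, from 14.96 to 8.86 CPM). Of the same 5, KLF3 had the highest ratio in RES-B (0.43). CREB3, which like CREB3L4 is tethered in the endoplasmic reticulum, had the highest ratio of these 5 in LNCaP-ENZ48 (0.15) and CREB3L2 the lowest (-0.28). The 5 had median log2 ratios of -0.27, -0.14, -0.0043 and 0.48 in the 4 comparisons, beside -0.07, 0.02, 0.11 and 0.09 over all genes, and the RES-B median was 0.17 over the 11. In RES-B against RES-A, 2 of the 5 were called higher (background 12.2%).

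Of 30 other transcription factors and cofactors of prostate and other epithelia, 19 averaged 10 CPM or more. In LNCaP-ENZ48, 1 was called higher and 3 lower, beside 0.992% and 3.19% of all genes. The highest ratio was that of ELF3, an epithelial ETS factor (0.63, 41.5 to 64.2 CPM), and the lowest that of SPDEF, the ETS factor of secretory prostate epithelium (-0.87, 83.6 to 45.8 CPM). In RES-A, 2 were called higher and 5 lower (background 11.3% and 11.5%), and in RES-B, 2 and 3 (14.2% and 8.26%). XBP1, a factor of the unfolded protein response, had the highest ratio in both, 1.10 in RES-A and 1.35 in RES-B, with 133, 286 and 340 CPM in LNCaP, RES-A and RES-B. NFIB, a nuclear factor I gene that acts beside FOXA1, had the lowest in both, -3.52 in RES-A and -1.90 in RES-B, with 62.2, 5.42 and 16.6 CPM. In RES-B against RES-A, 5 were called higher and 0 lower (background 12.2% and 5.82%), with NFIB at 1.62 and TBX3 lowest at -0.34. The medians of this list were 0.01, -0.28, 0.12 and 0.30. HOXB13, a prostate homeobox factor, was 135 CPM in LNCaP and 157 in LNCaP-ENZ48, against 92.0 for RES-A and 92.4 for RES-B.

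Of 21 transcription factors of other lineages, 1 averaged 10 CPM or more, ONECUT2, a homeobox factor linked to neuroendocrine change. It was 15.7 CPM in LNCaP and 10.9 in LNCaP-ENZ48, against 24.3 for RES-A and 12.2 for RES-B, and was called higher in RES-A against LNCaP (0.63) and lower in RES-B against RES-A (-0.998). TWIST1, a factor of mesenchymal cells, was 11.03 CPM in LNCaP and 9.17 in LNCaP-ENZ48, against 0.314 for RES-A and 0 for RES-B. Its log2 ratio against LNCaP was -5.14 in RES-A. In RES-B, with the count of 0 set to 3 UMIs, it was -7.60 (193-fold lower), and the upper end of its interval was -7.29. HNF4G went the other way, with 10 UMIs in LNCaP and 7 in LNCaP-ENZ48, against 99 for RES-A and 64 for RES-B. ZEB1 had 1, 12, 16 and 3 UMIs in the same order of libraries, and NKX2-1, which is also in the list before, had 0, 1, 34 and 1. SNAI1 and MYT1 stayed between 1.89 and 2.73 CPM. TP63, SOX2, NEUROD1 and ZEB2 had no UMI in any library.

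Epithelial junction and membrane genes, among them known targets of GRHL2, were given by 24 genes, of which 22 averaged 10 CPM or more. In LNCaP-ENZ48, 1 was called higher, the tight junction gene OCLN (1.24, 30.6 to 72.5 CPM), and none lower, beside 0.992% and 3.19% of all genes. In RES-A, 1 was called higher and 6 lower (background 11.3% and 11.5%), from LSR at 0.60 to the junction scaffold TJP1 at -1.91 (142 to 37.8 CPM). In RES-B, where GRHL2 was highest, 5 were called higher and 3 lower (background 14.2% and 8.26%), from the receptor gene ERBB3 at 1.04 to the splicing factor gene ESRP2 at -0.87. In RES-B against RES-A, 6 were called higher and none lower (background 12.2% and 5.82%). The list had medians of -0.11, -0.23, 0.02 and 0.26.

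Of 24 secretory pathway genes, a function with which CREB3L4 and its relatives are linked, 23 averaged 10 CPM or more. None was called in LNCaP-ENZ48, where CREB3L4 was lowest (background 0.992% and 3.19%). In RES-A, none was called higher and 6 lower (background 11.3% and 11.5%), with the cargo receptor gene TMED3 lowest (-1.35, 171 to 67.4 CPM) and TMED2 highest (0.32). In RES-B, 5 were called higher and 1 lower (background 14.2% and 8.26%), with TMED2 highest (1.01, 107 to 215 CPM) and TMED3 lowest (-0.87). In RES-B against RES-A, 9 of the 23 were called higher and none lower (background 12.2% and 5.82%), led by the COPII coat gene SEC24D (1.08, 8.72 to 18.5 CPM). The list had medians of 0.05, -0.29, 0.20 and 0.52. The lists were chosen with earlier results of these data known, and nothing particular to them is read from these counts.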

How the data were processed

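The authors deposited UMI counts per gene and cell barcode for 4 libraries of sorted living cells (10x 3' chemistry), counted by Cell Ranger 3.0.2 on a prebuilt GRCh38 reference per the submitters' processing notes; the deposited values are whole numbers and not normalised. The study's own limits decided which cells were kept. LNCaP cells needed 3000 to 7000 genes, 16000 to 50000 UMIs and less than 15% mitochondrial UMIs. Elsewhere a cell needed 1500 to 5000 genes, 5000 to 25000 UMIs and less than 15% (LNCaP-ENZ48), 17% (RES-A) or 20% (RES-B) mitochondrial UMIs. These limits differ between libraries, so LNCaP cells are also larger by selection. No doublet caller was run, and leaving out the 5% of cells with the most UMIs stands in for it. UMIs were summed over kept cells and scaled to CPM, with exact Poisson intervals for levels and exact conditional binomial (Clopper-Pearson) intervals for ratios. Intervals and floors (3 counts) cover counting error only. The study's test over cells was not used, since cells are not replicates.

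Python 3.11.15, numpy 2.4.6, scipy 1.17.1, pandas 2.3.3, scanpy 1.11.5 (phase calls, with Seurat's lists, on counts normalised to 10000), and R 4.3.3 with edgeR 4.0.16 (TMM factors) and DESeq2 1.42.0 (size factors only) were used. Alternatives were TMM, DESeq2 size factors, totals without mitochondrial and ribosomal protein genes, all deposited barcodes, 1 cell filter for all libraries, G1 cells alone and the mean over cells. The calculation of the ratio intervals was checked on simulated data. These counts were drawn at random, as the intervals assume. They hold no variation between cultures or libraries, so the check says nothing about it. Coordinates come from GENCODE 44, in which 33113 of the gene IDs were found. The members, the gene lists and the rule for named genes were chosen with earlier results of these data known. The genes named in each list are those with the highest and the lowest ratio per comparison among genes with at least 10 CPM in either library. Genes at 0, relatives of SOX9, SOX4, GATA2 and KLF5, DST and HOXB13 were chosen after their values were seen. So were SYP, COL1A1, HNF4G, ZEB1, NKX2-1, SNAI1, MYT1, the classes of cells by SOX4 count and the genes varying with SOX4.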

Additional observations from a re-analysis of the deposited data

How the results depend on the processing

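No paired analysis was possible because each group has 1 library. The 28 log2 ratios were recomputed under 8 alternatives of scaling, cell filter and cell weight. TMM and DESeq2 size factors moved the median of all genes in LNCaP-ENZ48 against LNCaP by 0.10 and 0.10 and in RES-B against LNCaP by -0.11 and -0.10, and the factors moved with it. Under both, 2 factors were called higher in LNCaP-ENZ48 (SOX9 and GATA2) and 1 lower (KLF5). In cells called G1, 1 was called lower in LNCaP-ENZ48 (CREB3L4) and 0 in RES-B. The SOX9 calls, the SOX4 calls, FOXA1 in RES-A and CREB3L4 in RES-B held under all 8, with SOX9 in RES-B between 4.03 and 4.13 and SOX4 in RES-A between 1.02 and 1.16. KLF5 in RES-A (0.59) ranged from 0.54 to 1.34 and lost its call under TMM, DESeq2 size factors and a total without mitochondrial and ribosomal protein genes, as did GRHL2 in RES-B (0.64, lowest 0.53). With a filter of 1 CPM in place of 10, 12627 genes entered and the background shares were 2.39% and 5.07% in LNCaP-ENZ48, 16.1% and 14.9% in RES-A, 17.8% and 11.6% in RES-B, and 14.4% and 9.26% in RES-B against RES-A. An alternative added after seeing the data, SOX4 coefficients in G1 cells alone, turned none of 36 signs. Depth limits GATA3 and KLF5 most, at 0 to 4 and 66 to 191 UMIs per library.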
